A study of Oryctolagus cuniculus with 39 samples.

Results

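The comparison concerned the stromal vascular fraction (SVF) of the subscapular brown adipose tissue (sBAT) of New Zealand White rabbits at 12 weeks of age against 6 weeks. The SVF is what remains of a fat depot once the floating fat cells are taken away: progenitors, fibroblasts, vessel cells, immune cells and blood cells. The study followed brown fat of the rabbit from day 1 to 12 weeks, the period over which this tissue loses its thermogenic character. Of its 39 samples, 6 were the libraries compared here, 3 at 6 weeks (replicates 1 to 3) and 3 at 12 weeks (replicates 1 to 3), and the 6 SVF libraries of interscapular brown adipose tissue (iBAT) at the same ages were used to ask whether a change differed between the depots. No group carried a mutation, transgene or treatment, and the groups differed in age alone as far as the labels state. The labels do not say whether the replicates came from separate animals, from pools or from separate cell isolations, so the p-values measure the spread between these libraries. The genes compared were the 12358 of 20589 in the stromal table with a deposited FPKM (fragments per kilobase of transcript, relative to the number of mapped fragments) of 1 or more in at least 3 of the 6 libraries. All values below are FPKM after median ratio scaling between libraries (scaled FPKM) unless another scale is named. Fold changes are log2 values of (scaled FPKM + 1), which understates the change of genes with low FPKM.

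Brown fat burns lipid through the uncoupling protein UCP1, and in the rabbit it is replaced by white fat as the animal grows. Its stroma holds the PDGFRA- and CD34-positive progenitors that renew fat cells and lay down collagen, together with vessels and resident macrophages, which clear debris and carry the scavenger receptors CD163 and MRC1. Lymphocytes enter from blood or from the lymphoid tissue embedded in fat, and red cells are carried in with the vessels.

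The 6 libraries separated by age. Pearson correlations of log2(scaled FPKM + 1) were 0.955 to 0.977 between replicates of one age and 0.92 to 0.94 between ages, and the first principal component (53.6% of the variance) ran from -31.5 to -26.4 at 6 weeks and from 26.4 to 32.7 at 12 weeks. The second component (18.7%) spread the 12 weeks libraries, from 22.9 in replicate 1 to -30.9 in replicate 3. A pair of genes, ADORA1 and LOC100009266, took 1.1%, 19.2% and 0.734% of all deposited FPKM in 6 weeks replicates 1 to 3 and 8.81%, 5.21% and 5.94% at 12 weeks, so 6 weeks replicate 2 stood apart in its composition. In the 3 sBAT libraries at 3 weeks ADORA1 was at 705909, 315410 and 376109 scaled FPKM. Their size factors were 0.309, 0.523 and 0.507, against 0.937 or more in every other SVF library, which limits the values given for 3 weeks below. The deposited values hold no read counts, and the absolute depth is unknown. From the steps between low values the relative depth was 0.76 to 1.059 at 12 weeks and 0.501 to 1.617 at 6 weeks, where the lowest, replicate 2, came out at 0.898 under another setting. Genes above 0 numbered 16279 to 17692 per library. Markers of the labelled fraction were present: CD34 was at 239 to 359 and PDGFRA at 26.6 to 54.8, while UCP1 was at 4.89 or less in every library.

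Between 6 and 12 weeks 1269 genes changed, which is 10.3% of the 12358 tested (limma, Benjamini-Hochberg adjusted p under 0.05). Of these, 555 (4.49%) were higher and 714 (5.78%) were lower at 12 weeks. The counts called in each gene list below are to be read beside these shares. Genes of red cells, B cells and T cells rose most, together with several genes of lipid storage. Genes of resident macrophages, interferon targets, chemokines, immediate early transcription factors and fibrillar collagens fell. The 3 values of the groups did not overlap for 1253 of the 1269, against 38.9% of all genes tested (20.1% higher and 18.8% lower). At least 2-fold changes numbered 502 (4.06%), 262 of them higher and 240 lower.

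The balance of rises and falls depended on the scaling. With FPKM as deposited 1075 genes were higher and 362 lower, and 550 of the 555 rises and 348 of the 714 falls were also called. Over all genes the median difference on the log2 scale was 0.02 with scaling and 0.16 without it. The spread was estimated over all 24 SVF libraries, and leaving out the 3 sBAT SVF libraries at 3 weeks raised the count to 2318, with all 1269 genes among them. Leaving out 1 of the 6 libraries lowered it to between 612 (without 6 weeks replicate 1) and 893 (without 12 weeks replicate 2), and 408 genes (165 higher, 243 lower) were called in all 6 such fits. The filter let in 453 genes that reached an FPKM of 1 in exactly 3 libraries, with a median mean FPKM of 1.13, and left out 409 that reached it in exactly 2, with a median of 0.878.

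**Figure D1:**
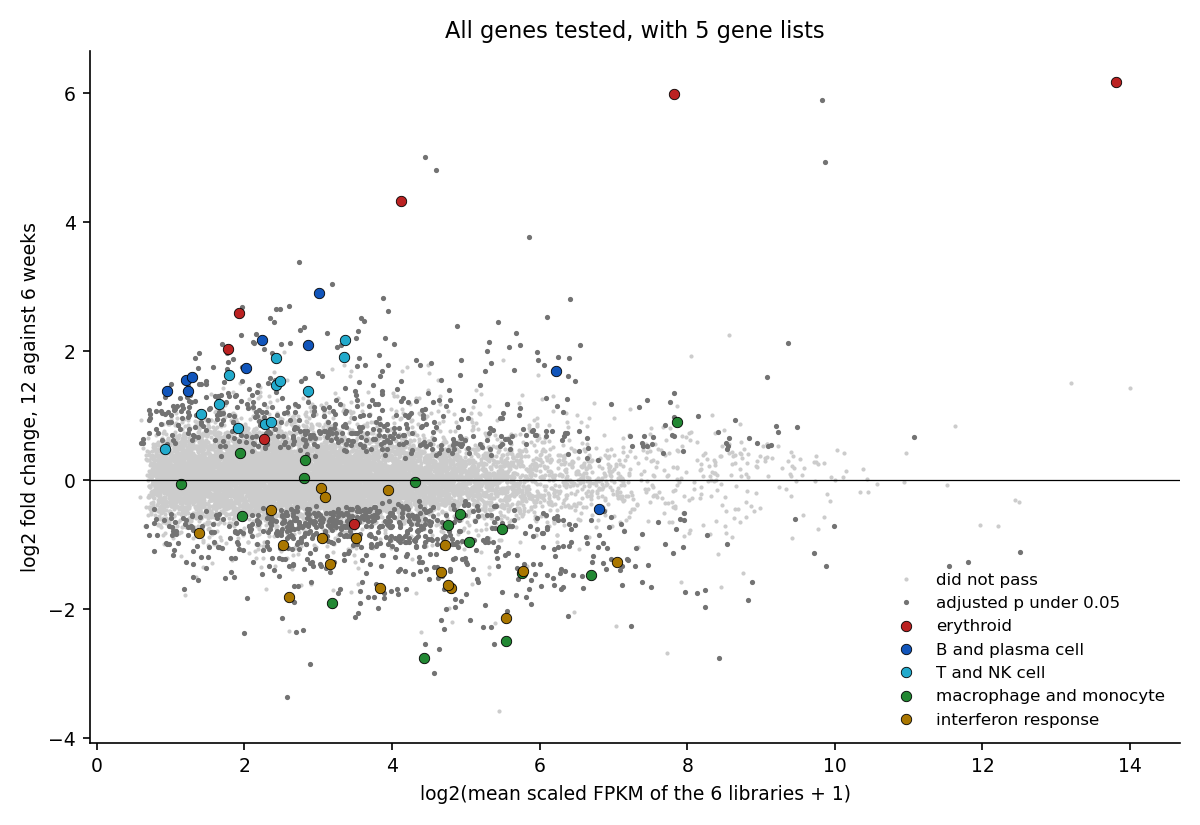
Log2 fold change at 12 against 6 weeks (vertical axis) against log2 of the mean scaled FPKM + 1 over the 6 libraries (horizontal axis) for the 12358 genes tested; dark points had an adjusted p under 0.05 and coloured points are the tested members of 5 gene lists. HBB2 lies highest, at 6.17, B and T cell genes lie above 0 except XBP1 (-0.44), most of them at low levels, and macrophage and interferon genes that passed lie below 0.

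Red cell genes showed the largest rises. HBB2, a beta-type globin gene, was at 309, 649 and 299 in 6 weeks replicates 1 to 3 and at 29162, 30184 and 25405 in 12 weeks replicates 1 to 3. The means differed 67.4-fold (log2 fold change 6.17 ± 0.70 (SE), adjusted p = 6.11e-05), and all 3 libraries at 12 weeks were high to a similar degree. ALAS2, which makes the first committed product of heme synthesis in red cell precursors, went from 5.56, 8.04 and 4.57 to 539.6, 478 and 317 (5.98 ± 0.71, adjusted p = 7.57e-05). Neither gene overlapped between the ages.

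Further genes used by red cells rose. The alpha-type globin genes HBQ1 and HBZ had log2 fold changes of 5.89 and 4.93 and the carbonic anhydrase CA1 4.81. HBZ differed most within an age, at 3218, 1706 and 541 at 12 weeks. TRIM58, a ubiquitin ligase of late red cell precursors, was at 0.244, 0.308 and 0.334 against 39, 52.8 and 32.6, and BTNL10, a butyrophilin-like gene, at 0.229, 0.145 and 0.0977 against 9.57, 13 and 10.9. Both passed the filter through 12 weeks alone and so had to differ. Globin genes are near-identical copies in part, and the authors' counting could split or share their reads, so the values of single globin genes are uncertain.

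Of 11 erythroid markers listed, 8 were matched and 7 tested. AHSP and EPB42 passed the filter through 12 weeks alone and so had to differ. Of the other 5, 3 rose, among them HBB2 and ALAS2, and 2 did not pass: KLF1, the transcription factor of the lineage (0.64, adjusted p = 0.47), and TFRC, the transferrin receptor (-0.68, adjusted p = 0.0646). SLC4A1, the anion exchanger band 3, was too low to test, at 0 in 2 of the 6 weeks libraries and at 1.54, 1.85 and 0.589 at 12 weeks. The summed level of the list was 330, 677 and 317 at 6 weeks, against 29769, 30713 and 25773 at 12 weeks, and its share of all deposited FPKM went from 0.089% to 0.175% at 6 weeks to 6.6% to 8.6% at 12 weeks. These are bulk libraries, in which more cells of a type and more RNA per cell cannot be told apart, here and for every list below. The part of red cell RNA in the other differences between the ages was not tested. At earlier ages HBB2 in this fraction was at 45581, 14894 and 20804 on day 1 and at 1429, 1659 and 379.8 at 3 weeks, so the 12 weeks values lay within the range of day 1 and above all values at 3 and 6 weeks.

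**Figure D2:**
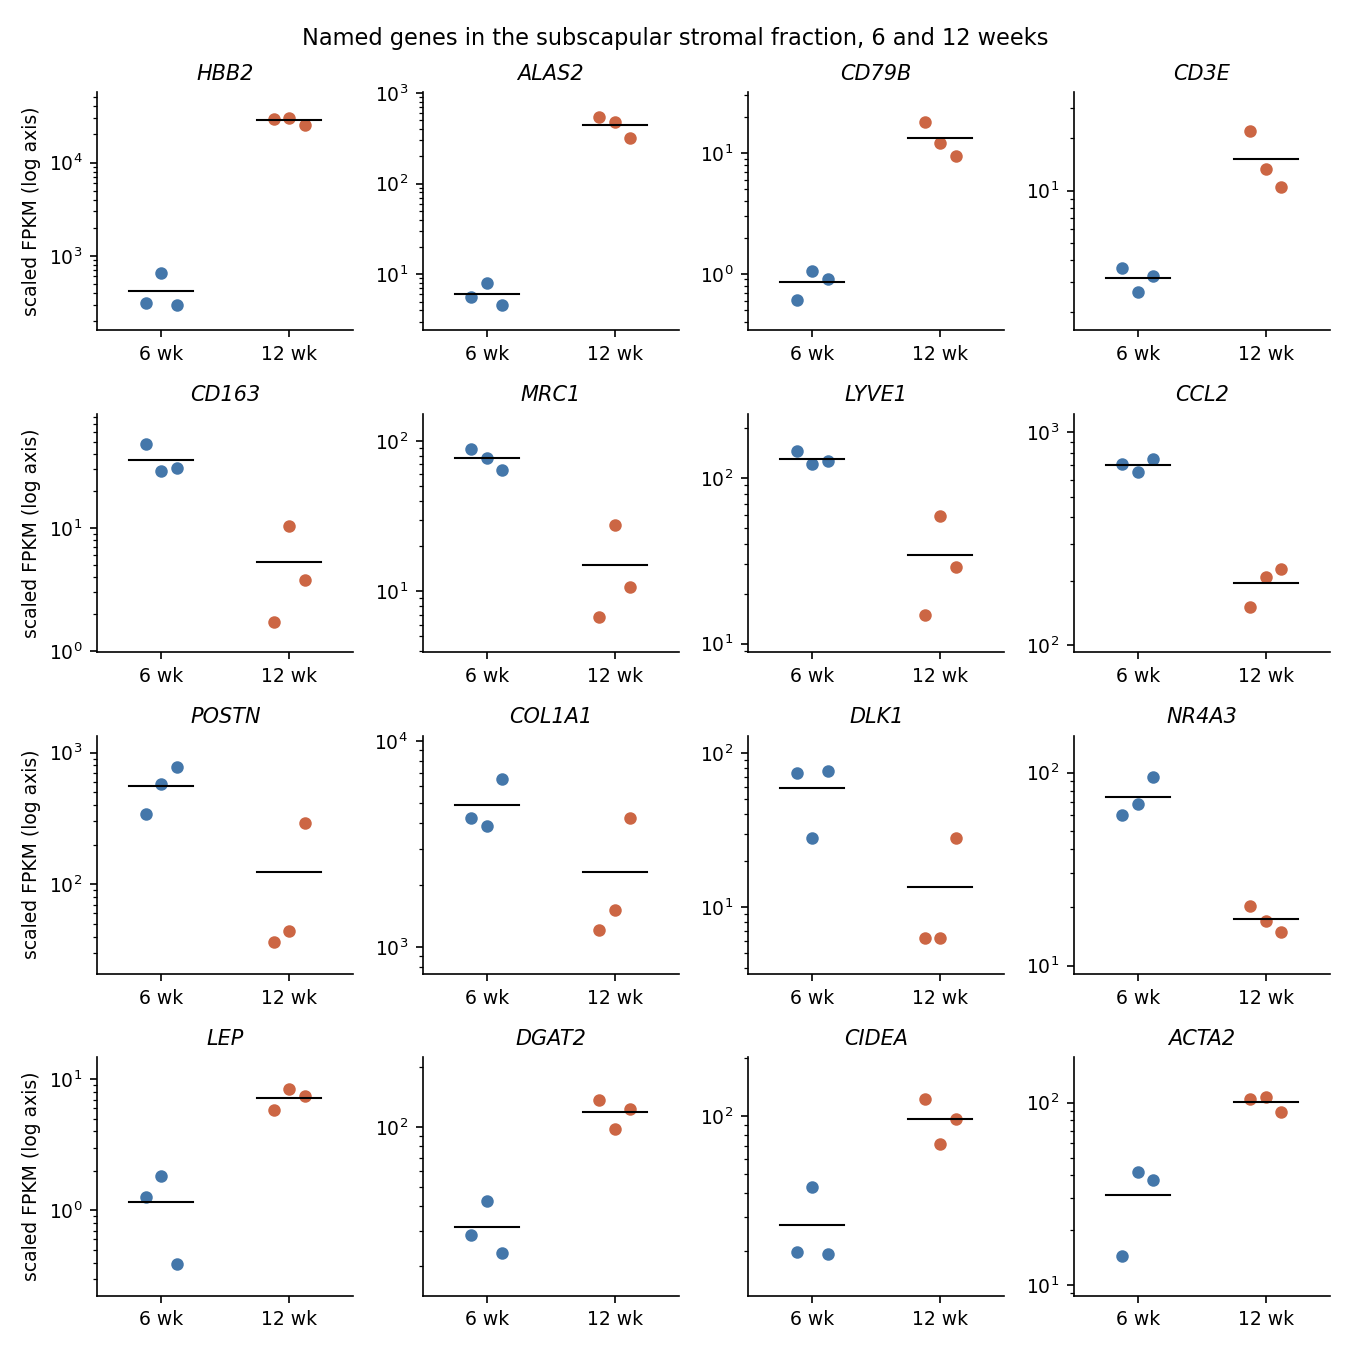
Scaled FPKM (log axis, its range set for each gene) of 16 named genes in the 3 libraries at 6 weeks (blue) and the 3 at 12 weeks (orange); each point is a library, replicates 1 to 3 from left to right, and the line is the mean. HBB2 and ALAS2 rose in all libraries at 12 weeks, CD163, MRC1 and LYVE1 fell with replicate 2 highest, and POSTN and COL1A1 fell with replicate 3 highest.

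B cell genes rose next. CD79B, a signalling chain of the B cell receptor, was at 0.606, 1.06 and 0.904 at 6 weeks, against 18, 12.2 and 9.5 at 12 weeks (2.90 ± 0.45, adjusted p = 0.00045). FCMR, the Fc receptor for IgM, rose by 3.05 ± 0.38 (adjusted p = 9.76e-05), from at most 0.904 to 23.8, 14.7 and 7.55. MZB1, a chaperone of antibody secretion, went from 1.57, 1.11 and 1.97 to 19.1, 6.84 and 7.02 (2.10, adjusted p = 0.00149), and POU2AF1, a transcriptional coactivator of B cells, rose by 2.17. In all 4 genes 12 weeks replicate 1 was highest. No value of CD79B, FCMR or MZB1 overlapped between the ages, while POU2AF1 passed the filter through 12 weeks alone and so had to differ.

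Of 13 B and plasma cell markers, 12 were matched and 10 tested. PAX5, BLK, POU2AF1, TNFRSF13C and 1 more passed the filter through 12 weeks alone and had to differ. Of the other 5, 4 rose (MS4A1, CD79B, JCHAIN and MZB1) and XBP1, which many secretory cells express, did not pass (-0.44, adjusted p = 0.506). Summed over the list, levels were 119 to 214 at 6 weeks and 183 to 342 at 12 weeks. These sums overlapped, and XBP1 alone was at 83.9 to 168 at 6 weeks.

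T cell genes rose by less. CD3E, an invariant chain of the T cell receptor complex, was at 3.6, 2.63 and 3.25 at 6 weeks, against 22.1, 13.3 and 10.5 at 12 weeks (1.91 ± 0.43, adjusted p = 0.00843). CD3D rose by 2.18 and the coreceptor CD4 by 1.89. Of 13 T and NK cell markers tested, out of 17 matched, 1 (TRAT1) passed the filter through 12 weeks alone. Of the other 12, 8 rose and none fell. The NK and cytotoxic genes NKG7, PRF1, EOMES and KLRB1 stayed below 1 in all 6 libraries and were not tested. The summed level of the list was 28.9, 16.5 and 24.4 at 6 weeks, against 135, 80.4 and 57 at 12 weeks. The count rested on 12 weeks replicate 1, the highest in these genes: without it 2 members passed, and without another of the 6 libraries 6 to 9 passed.

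Genes that lymphocytes share with other cells moved the same way. CCR7, the homing receptor for lymph nodes, went from 2.08, 3.11 and 2.34 to 23.8, 14.3 and 7.61 (2.09, adjusted p = 0.000984). The transcription factors TCF7 and LEF1, which act in WNT signalling and are abundant in naive T cells, both rose by 2.51 (adjusted p = 0.000276 and 0.000104). Their 12 weeks values fell in the order of replicates 1, 2 and 3. TCF7 was at 32.2, 16.1 and 10.5 and LEF1 at 13.2, 6.17 and 4.04. CD3E, CD4 and the summed T cell list had the same order, while CD3D did not, at 23.9, 11.6 and 12.5. LEF1 passed the filter through 12 weeks alone. The part of lymphocytes in the values of CCR7, TCF7 and LEF1 was not tested.

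Genes of resident macrophages fell. CD163, the scavenger receptor for haptoglobin and hemoglobin, was at 47.8, 29 and 30.8 at 6 weeks, against 1.73, 10.4 and 3.8 at 12 weeks, 6.74-fold lower in the mean (-2.76 ± 0.48, adjusted p = 0.00129). MRC1, the mannose receptor, went from 89.1, 77.1 and 64 to 6.71, 27.6 and 10.6 (-2.49 ± 0.41, adjusted p = 0.000855). CLEC4F, a lectin known from Kupffer cells of the liver, had the largest fall among the named genes, from 58.5, 38.3 and 25.5 to 1.22, 8.66 and 4.84 (-2.98 ± 0.47, adjusted p = 0.000601). In each of these genes 12 weeks replicate 2 was highest and replicate 1 lowest among the 12 weeks libraries, with no overlap with 6 weeks.

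Further macrophage genes followed. CD5L, a secreted protein of tissue macrophages, fell by 2.61 (adjusted p = 0.0113), and MS4A4A, a membrane protein of macrophages, fell by 2.27 (adjusted p = 0.00535). MSR1, the scavenger receptor for modified lipoproteins, fell by 1.90 (adjusted p = 0.0126). MS4A4A was called in all 6 fits without a library, CD5L in 4 and MSR1 in 3. Of the 16 macrophage and monocyte markers tested, out of 19 listed, 8 fell, none rose and 8 did not pass. The members that fell were CD68, CSF1R, CD163, MRC1, AIF1, MSR1, C1QC and CTSS. RefSeq names the gene given here as C1QC as C1QA. CD14 (-0.03, adjusted p = 0.961), SPP1 (0.04, adjusted p = 0.967) and LYZ (0.90, adjusted p = 0.0983) did not pass. The list's median was -0.62, against 0.02 for all genes. Its summed level was 845, 658 and 626 at 6 weeks, against 382, 604 and 672 at 12 weeks, and these sums overlapped. LYZ, lysozyme, alone was at 431 in 12 weeks replicate 3. With FPKM as deposited 5 members passed. Without 6 weeks replicate 1 or 12 weeks replicate 1, 3 passed, without 12 weeks replicate 3, 4, and without 6 weeks replicate 2, 5.

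LYVE1, which marks both lymphatic vessels and resident macrophages, fell from 145, 121 and 126 to 14.9, 58.9 and 28.9 (-2.10 ± 0.43, adjusted p = 0.00418). Its 12 weeks values had the same order as those of CD163 and MRC1, and the parts of macrophages and of lymphatic vessels in LYVE1 were not tested. Among 7 lymphatic endothelial markers, LYVE1 and PROX1, the transcription factor of lymphatic identity, fell. PROX1 was low, at 1.6, 1.57 and 1.39 against 0.397, 0.347 and 0.902 (-0.72, adjusted p = 0.0407), and in 5 of the 6 fits without 1 library it did not pass. The other lymphatic genes, among them FLT4 (0.29, adjusted p = 0.698) and CCL21 (-0.75, adjusted p = 0.441), did not pass. Log2 fold changes were negative in 6 of the 7 and positive in 1, FLT4, with a median of -0.72. The list's sum, which includes LYVE1, was 218, 196 and 222 at 6 weeks, against 60.9, 96.2 and 91.8 at 12 weeks.

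**Figure D3:**
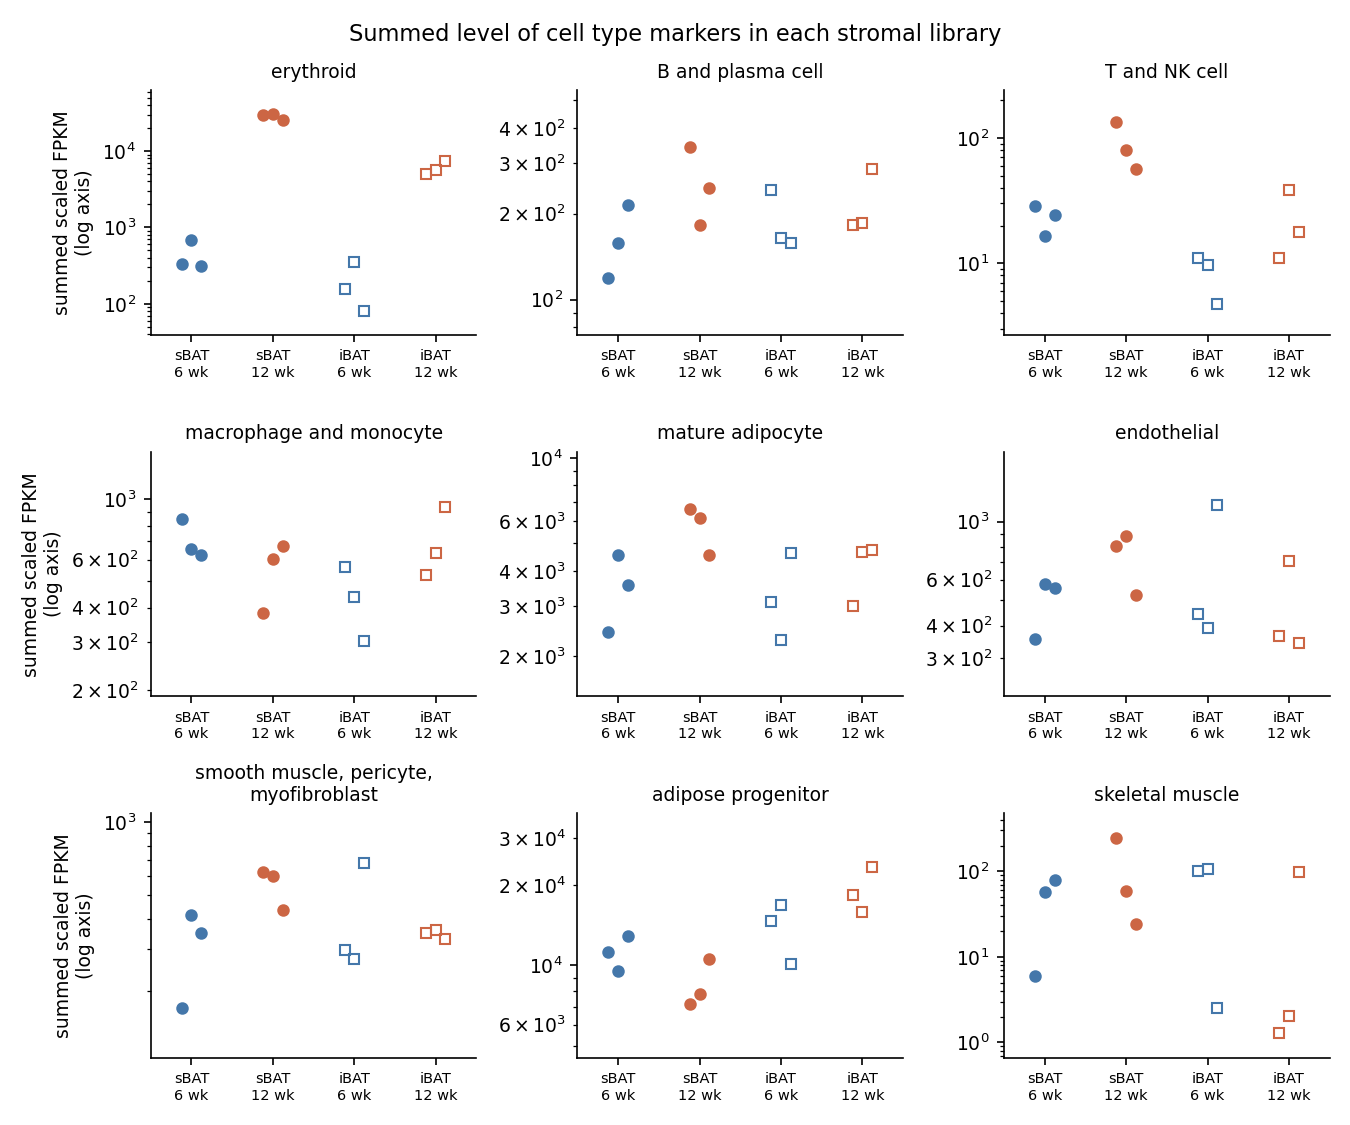
Summed scaled FPKM (log axis, its range set for each list) of 9 cell type marker lists in each stromal library at 6 weeks (blue) and 12 weeks (orange), with filled circles for sBAT and open squares for iBAT. The erythroid sum was 317 to 677 at 6 weeks and 25773 to 30713 at 12 weeks in sBAT, the T and NK cell sum did not overlap between the ages, and the macrophage, endothelial and skeletal muscle sums overlapped.

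Interferon targets were lower at 12 weeks. Of 18 tested, out of 22 listed, 11 fell and none rose. All 18 had a log2 fold change below 0, against 5861 of the 12358 genes tested. The median was -1.13. CXCL10, a chemokine that draws T cells, went from 79.4, 99.6 and 48.5 to 15.8, 17.7 and 13.8 (-2.14 ± 0.39, adjusted p = 0.00191). OAS2, an antiviral oligoadenylate synthetase, fell by 1.81 (adjusted p = 0.00408), and IRF7, a transcription factor of the interferon response, went from 34.1, 14.3 and 15 to 5.38, 6.64 and 4.42 (-1.67, adjusted p = 0.0101). Summed over the list, levels were 745, 531 and 542 at 6 weeks, against 219, 244 and 221 at 12 weeks. At 3 weeks, in the libraries with low size factors, the sum was 167 to 256, and on day 1 it was 152 to 196. After scaling, 6 weeks was thus the highest of the 4 ages in this fraction. IFGGA1, an interferon-inducible GTPase, had the same course, at 74.6, 62.3 and 73.2 at 6 weeks, 9.63, 14.9 and 9.81 at 12 weeks (-2.54, adjusted p = 0.000446), 3.07 to 8.59 at 3 weeks and 3.07 to 5.14 on day 1. CXCL10, OAS2 and IFGGA1 were called without each of the 6 libraries in turn, and IRF7 without each but 6 weeks replicate 1, its highest library. Without that library 5 list members passed, without 12 weeks replicate 3, 7, and without another 8 to 12.

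Several chemokines and complement genes fell with them. CCL2, which recruits monocytes, was at 713, 654 and 753 at 6 weeks, against 151, 209 and 229 at 12 weeks (-1.86 ± 0.32, adjusted p = 0.00111). GRO-B, a neutrophil chemokine that RefSeq names CXCL1, went from 14.8, 67.5 and 63.9 to 8.65, 8.11 and 15.3 (-1.87, adjusted p = 0.0134). IL6, an inflammatory cytokine, went from 11, 43.8 and 61.4 to 12.4, 9.79 and 9.57 (-1.48, adjusted p = 0.042). In both, 6 weeks replicate 1 lay within the range at 12 weeks, and the calls held in 2 (GRO-B) and 1 (IL6) of the 6 fits without a library. In the inflammatory list 5 of 17 tested genes fell and none rose, with a median of -0.37. Without 6 weeks replicate 2 or 3, or 12 weeks replicate 1 or 2, 3 passed. IL1B (0, adjusted p = 0.998) and TNF (-0.48, adjusted p = 0.209) did not pass.

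Of 15 complement genes tested, 5 fell and none rose, with a median of -0.62. Without 6 weeks replicate 1, 3 passed, and without another library 4 or 5. C2, a protease of the classical pathway, went from 50.7, 29.2 and 44.9 to 3.17, 13 and 9.11 (-2.31 ± 0.47, adjusted p = 0.00416). Its 12 weeks values were ordered as those of CD163, and the part of macrophages in it was not tested. CFB, a protease of the alternative pathway, fell by 2.12 (adjusted p = 0.0176), called in 3 of the 6 fits without a library. C3, the central component, went from 99.5, 106 and 148 to 26.9, 47.2 and 34.5 (-1.69, adjusted p = 0.00154). C4BPA, a soluble inhibitor of the cascade, was at 274, 161 and 174 at 6 weeks, against 154, 183 and 318 at 12 weeks, and the ages overlapped (0.07 ± 0.40, adjusted p = 0.933).

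Immediate early genes, which respond within minutes to stimuli and also to the digestion that releases stromal cells, were lower at 12 weeks. Of 19 tested, 10 fell and none rose, with a median of -0.69. The orphan nuclear receptor NR4A2 was at 115, 128 and 118 at 6 weeks, against 38.4, 42.8 and 32 at 12 weeks (-1.65 ± 0.16, adjusted p = 1.15e-05), with little spread within either age. NR4A3 fell by 2.02 (adjusted p = 0.000104) and NR4A1 by 1.58 (adjusted p = 0.00383). The members that did not pass included FOS (-0.54, adjusted p = 0.0777), JUN (-0.40, adjusted p = 0.203) and the heat shock genes HSPA8, HSPH1 and HSP90AA1. With FPKM as deposited or without 6 weeks replicate 3, 7 members passed, and without 6 weeks replicate 1 or 12 weeks replicate 1, 6 passed. The summed level of the list was 5005 to 6431 at 6 weeks and 3099.8 to 4264 at 12 weeks. The labels give no times or conditions of tissue digestion, and the part of handling in these genes was not tested.

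Fibrillar collagen and other matrix genes fell, with 12 weeks replicate 3 standing apart. POSTN, periostin, a matrix protein of remodelling tissue, was at 340, 574 and 773 at 6 weeks, against 36.4, 44.3 and 290 at 12 weeks (-2.76 ± 0.59, adjusted p = 0.00569). COL1A1, a chain of type I collagen, was at 4234, 3859 and 6502 against 1205, 1509.8 and 4212 (-1.26 ± 0.38, adjusted p = 0.039), and COL3A1, type III collagen, at 6672, 7156 and 9609 against 2619, 2909.9 and 5988 (-1.11 ± 0.34, adjusted p = 0.0409). For COL1A1 replicate 3 at 12 weeks lay above replicate 2 at 6 weeks, so the groups overlapped. For both collagens the call was lost in 5 of the 6 fits without a library, and as deposited it was lost too, with log2 fold changes of -1.10 and -0.95. POSTN was called in all 6.

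In the matrix list 7 of 24 tested genes fell and none rose, with a median of -0.50. With FPKM as deposited 4 passed. Without 12 weeks replicate 1 or 6 weeks replicate 3, 2 passed, without 12 weeks replicate 2 or 6 weeks replicate 1, 3, and without the other 2 libraries 5 and 7. COL1A2 fell by 1.32 (adjusted p = 0.0244) and THBS1, thrombospondin 1, by 1.40 (adjusted p = 0.0165). The calls held in 2 (COL1A2) and 4 (THBS1) of the 6 fits without a library. The basement membrane collagens COL4A1 (0.16, adjusted p = 0.852) and COL4A2 (0.22, adjusted p = 0.797), which vessel and fat cells lay down, did not pass. Summed over the list the level was 23980, 24443 and 34793 at 6 weeks, against 11273, 12819 and 24774 at 12 weeks.

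Of 15 matrix proteases and inhibitors tested, 5 fell and none rose. MMP14, a membrane-bound collagenase, went from 111, 65 and 133 to 40.6, 40.3 and 49.9 (-1.17 ± 0.26, adjusted p = 0.00721). MMP19 fell by 1.36 (adjusted p = 0.00213) and ADAM12, a membrane metalloprotease, by 1.22 (adjusted p = 0.00102), both with no overlap and in all 6 fits without a library. MMP2 (-0.70, adjusted p = 0.127) and TIMP1, TIMP2 and TIMP3, inhibitors of these enzymes (-0.19, -0.26 and 0.39), did not pass. In 12 weeks replicate 3, high in collagens, MMP14 was at 49.9 and so near replicates 1 and 2.

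Progenitor genes did not move as one. Of 22 tested, 4 fell, 1 rose and 17 did not pass, with a median of -0.35. PI16, a marker of fibroblast-like progenitors around vessels and septa, was at 229.7, 204 and 399 at 6 weeks, against 882, 744 and 795 at 12 weeks (1.60 ± 0.35, adjusted p = 0.00637). DPP4, which marks the same cells in mouse fat, was at 72.6, 57.4 and 59.6 against 42.3, 35 and 55.1 (-0.52 ± 0.27, adjusted p = 0.229). DLK1, preadipocyte factor 1, which holds progenitors back from becoming fat cells, went from 74.1, 28 and 76.6 to 6.23, 6.24 and 28 (-2.27 ± 0.49, adjusted p = 0.00622). The lowest value at 6 weeks and the highest at 12 weeks were both 28 after rounding, and replicate 3 was again highest at 12 weeks.

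EBF2, a transcription factor that marks brown fat progenitors, fell from 34.1, 27.3 and 31.2 to 15.5, 14.7 and 17.5 (-0.91 ± 0.17, adjusted p = 0.00185). LUM, lumican, a collagen-binding proteoglycan, fell by 1.33 (adjusted p = 0.0163). GPC3, a cell surface proteoglycan, went from 41.3, 8.91 and 27.3 to 3.29, 7.03 and 7.94 (-1.76, adjusted p = 0.0119), with 6 weeks replicate 2 close to the 12 weeks values and the call lost in 3 of the 6 fits without a library. PDGFRA (-0.58 ± 0.27, adjusted p = 0.193), CD34 (0.07 ± 0.17, adjusted p = 0.842) and PPARG (0.23 ± 0.38, adjusted p = 0.751), the master regulator of fat cell formation, did not pass. FSTL1, a secreted glycoprotein of stromal cells (0.05, adjusted p = 0.923), and ALDH1A1, an enzyme of retinoic acid synthesis (-0.13, adjusted p = 0.82), did not pass either.

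**Figure D4:**
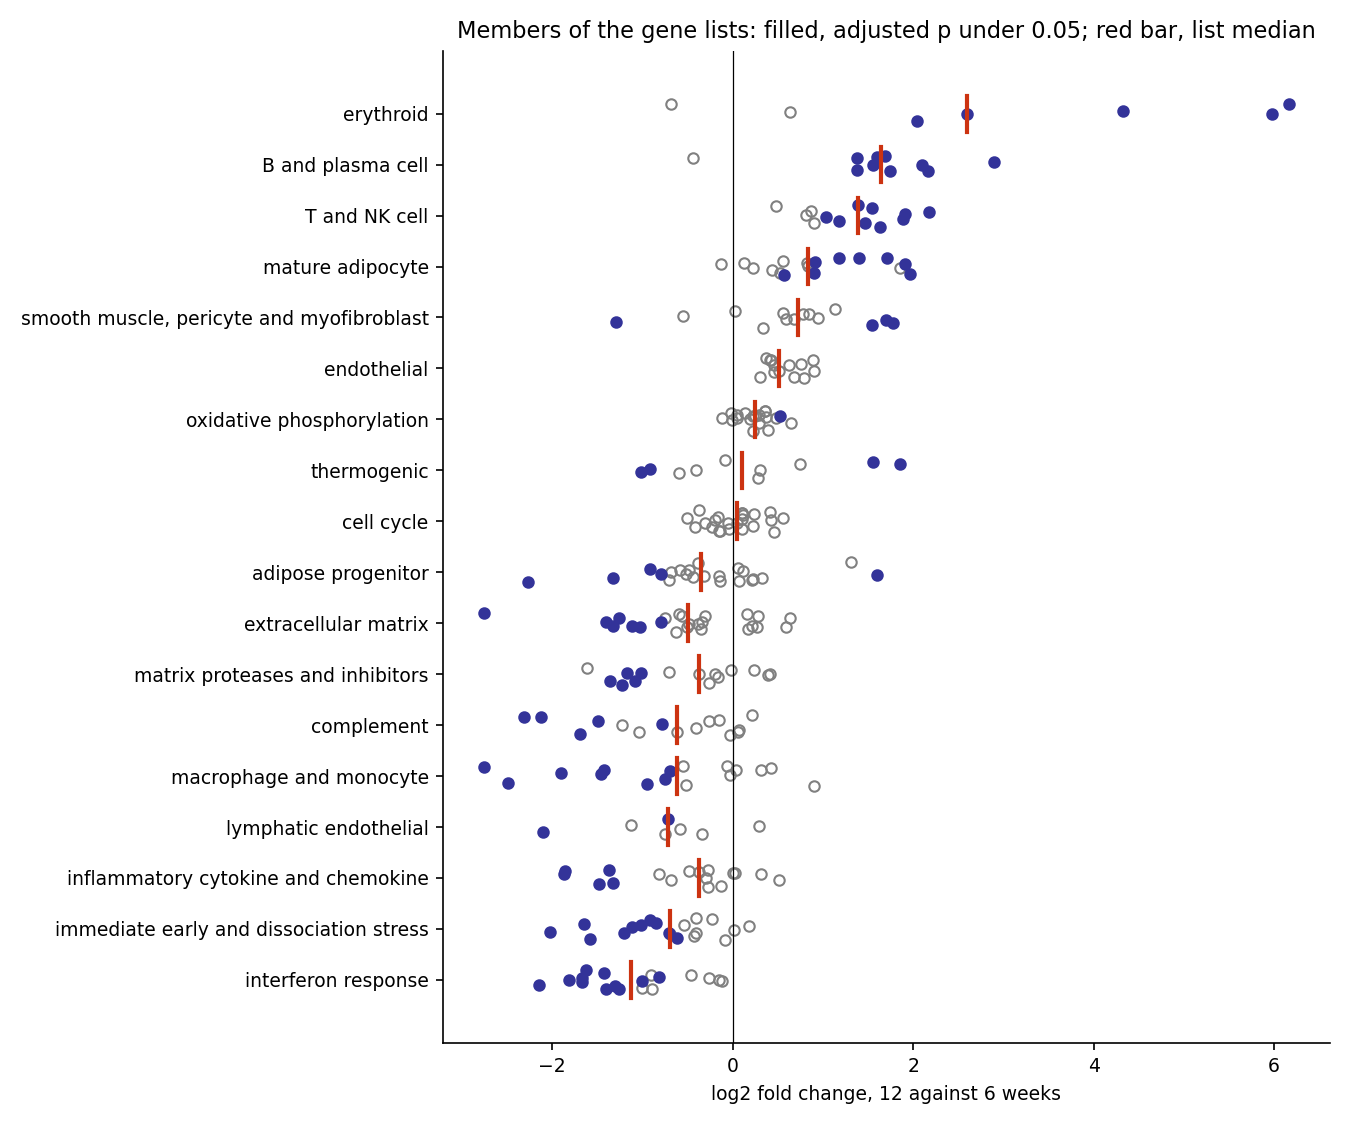
Log2 fold change at 12 against 6 weeks (horizontal axis) of the tested members of 18 gene lists; filled points had an adjusted p under 0.05, open points did not, and the red bar is the list's median. The medians run from 2.60 for erythroid genes to -1.13 for interferon targets, and the progenitor and thermogenic lists hold filled points on both sides of 0.

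Most genes of smooth muscle and pericytes had a positive log2 fold change, few passed, and 1 of those that passed fell. ACTA2, smooth muscle actin, was at 14.5, 41.7 and 37.7 at 6 weeks, against 105, 107 and 89.3 at 12 weeks (1.78 ± 0.50, adjusted p = 0.0291). TAGLN, transgelin, rose by 1.70 (adjusted p = 0.0466) and MYL9, a myosin light chain, by 1.54 (adjusted p = 0.0184). ABCC9, the potassium channel subunit that marks pericytes, fell from 13.8, 20.6 and 17.7 to 4.78, 8.93 and 6.13 (-1.29 ± 0.21, adjusted p = 0.000807). Of 14 tested, 3 rose and 1 fell. Log2 fold changes were positive in 12 and negative in 2, with a median of 0.73. The list's sum was 171, 412 and 350.1 at 6 weeks, against 621, 599.8 and 434 at 12 weeks, with no overlap. ACTA2 passed in 2, MYL9 in 4 and TAGLN in none of the 6 fits without a library. Skeletal muscle genes varied by library, their sum being 6.02, 57.1 and 79.1 at 6 weeks, against 243, 59.2 and 24.2 at 12 weeks, and none of 8 tested passed.

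No endothelial gene passed. All 13 tested had a positive log2 fold change, against 6497 of the 12358 genes tested, and their median was 0.51. PECAM1 was at 55.6, 87.9 and 76.6 against 116, 122 and 70.3 (0.46 ± 0.42, adjusted p = 0.529). In each of the 13 genes replicate 3 was the lowest of the 12 weeks libraries. Summed over the list, levels were 354, 579 and 559 at 6 weeks, against 808, 880 and 522 at 12 weeks, and the ages overlapped.

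Several genes of lipid storage rose. CIDEA, a lipid droplet protein of brown fat, was at 19.8, 43.1 and 19.3 at 6 weeks, against 123, 72 and 96.7 at 12 weeks (1.86 ± 0.37, adjusted p = 0.0036). LEP, the hormone leptin of white fat, went from 1.26, 1.84 and 0.391 to 5.79, 8.41 and 7.43 (1.97 ± 0.32, adjusted p = 0.000744). DGAT2, which makes triglyceride, went from 28.8, 42.5 and 23.4 to 136, 97.6 and 123 (1.91 ± 0.34, adjusted p = 0.00164). In all 3 genes no value overlapped, and 6 weeks replicate 2 was the highest of its age.

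Of 17 mature adipocyte markers tested, 8 rose, none fell and 9 did not pass, with a median of 0.84. GPD1, which supplies the glycerol backbone, rose by 1.71 (adjusted p = 0.00111), LIPE, hormone-sensitive lipase, by 1.18 (adjusted p = 0.00821), and SLC2A4, the insulin-dependent glucose transporter, by 0.91 (adjusted p = 0.00391). PLIN1, PLIN4, CFD and PNPLA2 were listed but not matched to a gene. The markers ADIPOQ and FABP4 did not pass. ADIPOQ, adiponectin, was at 223, 598 and 471 against 719, 762 and 349 (0.53 ± 0.42, adjusted p = 0.457). FABP4, the fatty acid binding protein, was at 1524, 3131 and 2278 against 4555, 4237 and 3241 (0.84 ± 0.48, adjusted p = 0.289), with no overlap between the ages. The summed level of the list was 2441, 4562 and 3574 at 6 weeks, against 6629, 6121 and 4534 at 12 weeks, so the ages overlapped. The part of fat cells carried into the fraction was not tested.

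Thermogenic genes were mostly low. UCP1 was at 1.21, 4.89 and 0.48 at 6 weeks, against 1.42, 0.0417 and 1.25 at 12 weeks (-0.59 ± 0.67, adjusted p = 0.625), against 57.7 to 86 on day 1 and 61.7 to 120.3 at 3 weeks in the same fraction. Of 18 markers 10 were tested. DIO2, which activates thyroid hormone, the coactivator PPARGC1A and the receptor ADRB3 were among the 8 too low to test. ZIC1, a transcription factor of brown fat precursors, passed the filter through 12 weeks alone, at 2.52, 2.67 and 2.04 against at most 0.214 (1.56, adjusted p = 0.000252). Of the other 9, CIDEA rose, and EBF2 and LHX8, a transcription factor associated with brown fat, fell. LHX8 was at 22.1, 14.8 and 14.4 against 6.14, 5.67 and 13.5 (-1.01, adjusted p = 0.0426) and passed in 1 of the 6 fits without a library.

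In the signalling lists the members that passed are read against the 10.3% called over all genes. In the WNT list LRP6, a coreceptor, fell by 0.83 (adjusted p = 0.00546) and TCF7L2, a transcription factor of the pathway, by 0.59 (adjusted p = 0.0142). TCF7 and LEF1 rose, so 4 of 22 tested passed. LEF1 passed the filter through 12 weeks alone and had to differ, and of the other 21 genes 1 rose and 2 fell. With FPKM as deposited neither LRP6 nor TCF7L2 was called, and TCF7L2 was called in 3 of the 6 fits without a library. In the list of TGF-beta and BMP signalling 2 of 26 passed. CHRDL1, a BMP antagonist, went from 177, 94.4 and 169 to 60.7, 63.5 and 62.9 (-1.17, adjusted p = 0.0137), and BMP6, a ligand, rose by 1.30 (adjusted p = 0.0304), with its call held in 1 of the 6 fits without a library. RDH10, which makes retinal from retinol, was the 1 retinoid gene of 15 that passed, from 53.5, 46.7 and 54 to 13.7, 14.8 and 24.3 (-1.53 ± 0.24, adjusted p = 0.000636).

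In oxidative phosphorylation 1 of 19 genes rose, COX4I1, a subunit of cytochrome oxidase (0.53, adjusted p = 0.0185). That count was 6 with FPKM as deposited, 5 without 6 weeks replicate 2, and 0 without 6 weeks replicate 1, 12 weeks replicate 1 or 12 weeks replicate 3. In fatty acid oxidation 1 of 12 rose, ECI1 (0.69, adjusted p = 0.0379), called in 2 of the 6 fits without a library. Of 17 ribosomal protein genes RPS18 (0.85, adjusted p = 0.0121) and RPL13 (0.42, adjusted p = 0.0472) rose, and 0 (without 6 weeks replicate 1) to 4 (without 6 weeks replicate 3) passed without a library, with 1 in the other 4 fits. In the unfolded protein response SDF2L1 rose by 1.06 (adjusted p = 0.0118) and SEL1L, a part of endoplasmic reticulum degradation, fell by 0.45 (adjusted p = 0.0337), 2 of 15. SEL1L was called in none of the 6 fits without a library and not as deposited (adjusted p = 0.321), and SDF2L1 in 4. None of 23 cell cycle genes and none of 17 genes of fatty acid and sterol synthesis passed (limma, adjusted p under 0.05). The proliferation markers MKI67 (-0.05 ± 0.37, adjusted p = 0.955) and TOP2A (-0.50 ± 0.34, adjusted p = 0.372) were both highest at 6 weeks in replicate 2, at 7.34 and 9.28. No marker passed among 6 neutrophil, 4 mast cell and 10 Schwann cell genes, and no mesothelial gene was high enough to test.

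The remaining genes with the largest changes belonged to none of these lists. CYP2B4, a cytochrome P450, went from 1.89, 6.79 and 0.961 to 22.4, 28 and 22.5 (2.83 ± 0.34, adjusted p = 8.01e-05). TEX26 went from 8.92, 13.7 and 13.4 to 0.501, 0.847 and 1.05 (-2.84 ± 0.38, adjusted p = 0.000159). Both were clear of overlap. HAVCR1, a phosphatidylserine receptor, fell by 2.53 (adjusted p = 0.000363) and SLC15A2, a peptide transporter, by 2.32 (adjusted p = 0.00079). In both, 12 weeks replicate 2 was the highest of its age, as for CD163, and the part of macrophages in them was not tested. NOX5, an NADPH oxidase, was at 4.24, 6.87 and 5.76 against 1.61, 2.67 and 13.4 (-0.34 ± 0.49, adjusted p = 0.718), with replicate 3 at 12 weeks above all others. ALOX15, a lipoxygenase, was too low to test, at 0.181 or less.

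The interscapular depot was set beside the subscapular one. Its stromal libraries at 12 and 6 weeks, 3 each, share no library with those above. Both comparisons came from the same fit, in which the depots shared the estimated spread of each gene. A gene of low spread thus tends to be called in both, and the overlap of calls is not one between independent tests. The labels do not say whether the depots came from the same animals. There 2346 genes (19%) were called, 1061 (8.59%) higher and 1285 (10.4%) lower. Called in both depots in the same direction were 667 genes, which is 52.6% of the subscapular and 28.4% of the interscapular calls. Of the 555 subscapular rises 210 were also called in iBAT, and of the 714 falls 457. Across all genes tested 71% had the same sign in both depots, and the fold changes had a Pearson correlation of 0.56 and a Spearman correlation of 0.55, over genes, which are not independent replicates. MRC1 (-2.44 in iBAT), NR4A2 (-1.53), LEP (1.57) and CYP2B4 (2.95) were called in both. HBB2 and ALAS2 were too, with log2 fold changes of 5.35 and 4.50 in iBAT, where the erythroid share of deposited FPKM reached 1.14% to 1.43% at 12 weeks.

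A test of the difference between the depots' changes (the depot by age interaction) called 1 gene, 0.00809% of those tested, with 1248 at an unadjusted p under 0.05. It was LOC100356732, a gene with a placeholder name, singled out after its values were seen. In sBAT it was at 14.7, 7.61 and 17.8 at 6 weeks, against 15.6, 2.37 and 3.1 at 12 weeks (-1.15 ± 0.54, adjusted p = 0.183). In iBAT it was listed at 0 in all 3 libraries at 6 weeks and was at 20.2, 11.4 and 15 at 12 weeks. The difference was -5.17 ± 0.76 (adjusted p = 0.0177), and it missed the threshold without sBAT 6 weeks replicate 1 or 3, sBAT 12 weeks replicate 2, iBAT 6 weeks replicate 1 or iBAT 12 weeks replicate 1, at -5.17 to -4.74. C4BPA rose in iBAT, from 76.6, 52 and 52 to 374, 333 and 505 (2.73, adjusted p = 0.00017), and NOX5 too (2.30, adjusted p = 0.00333), but their differences between depots did not pass (-2.65, adjusted p = 0.136, and -2.64, adjusted p = 0.211). The complement list had a median of -0.62 in sBAT and 0.41 in iBAT, and none of its members was called for the interaction. Other lists also had medians of opposite sign in sBAT and iBAT. Among them were the endothelial (0.51 and -0.33), smooth muscle (0.73 and -0.09) and skeletal muscle lists (0.74 and -0.96), likewise without an interaction called. The count of interactions depended on the fit and was 43 with the libraries at 6 and 12 weeks alone, and 25 without the sBAT libraries at 3 weeks.

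**Figure D5:**
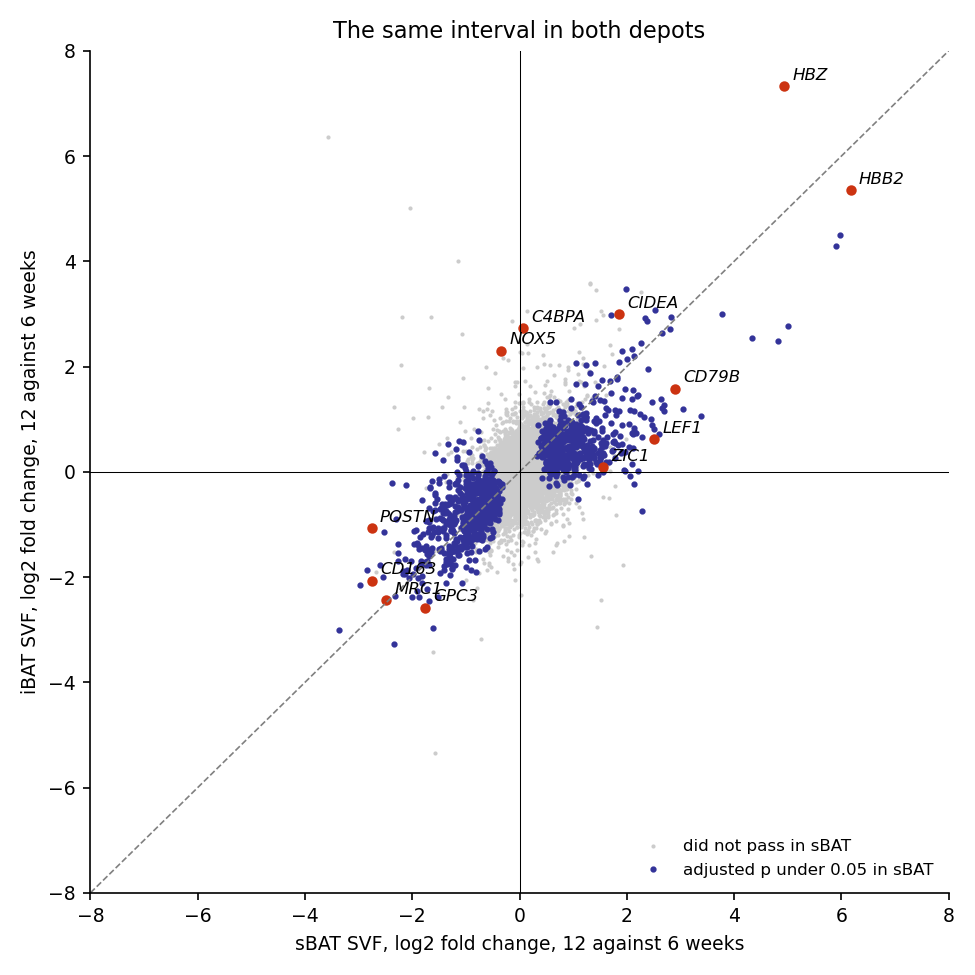
Log2 fold change at 12 against 6 weeks in iBAT SVF (vertical axis) against sBAT SVF (horizontal axis) for the 12358 genes tested, with genes called in sBAT in blue, 12 genes labelled in red and the line of equal change dashed. HBB2 and HBZ lie high on both axes, CD163 and MRC1 low on both, and LOC100356732 is the grey point at -1.15 and 4.01.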

How the data were processed

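The authors deposited FPKM values per gene for 24 SVF libraries, per the file headers. The submitters' processing notes name HISAT2 2.0.4, Bowtie2 2.2.5, DESeq2 and the build OryCun2.0, with no role or order. The quantification tool and annotation are not given in the sources used here, and no counts were recovered. Of 20589 gene IDs, 85.9% were in a RefSeq table of assembly mOryCun1.1, used for names only.

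FPKM was divided by median ratio size factors over the 24 libraries and log2(value + 1) was tested with limma 3.58.1 (R 4.3.3, trend) over 8 group means, with Benjamini-Hochberg adjustment over the 12358 genes at FPKM 1 or more in at least 3 of the 6 libraries. An adjusted p under 0.05 was called. Tables were made with python 3.11.15 and pandas 2.3.3. On simulated data with 200 changed genes among 12358, this fit found 56% of those changed by 1 and 96% of those changed by 2 on the log2 scale, and 3.8% of calls were false. The simulated noise was normal, independent between genes and of equal spread in all groups, and the scaling was not repeated. These shares therefore need not hold for the real libraries, where genes of a cell type move together.

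Named were the called genes with the 12 largest rises and the 12 largest falls (those with a gene symbol, no overlap, and a group mean of at least 10), the 3 largest each way per list, 28 key genes and the interaction calls. Others were chosen after their values were seen. The members, the 31 lists (531 genes, 432 tested) and the key genes were chosen with earlier results of these data known. Alternatives were other scalings, filters, pseudocounts, library sets, array weights, a replicate block and leaving out each library. Single-cell samples and the table of whole iBAT were not analysed here. Some named genes are not reported here.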

Additional observations from a re-analysis of the deposited data

Results flagged for a closer look

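LOC100356732 differed between the depots in its change with age: the difference of the log2 fold changes, sBAT less iBAT, was -5.17 (limma interaction term, adjusted p = 0.0177). Its 3 values at 6 weeks in iBAT were listed at 0, which in a table without counts can be a failed estimate. In sBAT 1 of the 3 libraries at 12 weeks (15.6) lay within the range at 6 weeks and the other 2 lay below it.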

How the results depend on the processing

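The count of 1269 changed genes was 1095 to 1660 under other scalings, filters, the smaller pseudocount, no trend and a fit of the 6 libraries alone. It was 496 in a fit of the sBAT libraries alone, 2318 without the sBAT libraries at 3 weeks, 3447 with array weights and 502 with a log2 fold change of at least 1. Leaving out 1 of the 6 libraries gave 612 to 893. For the 1 interaction, FPKM as deposited gave 3, no filter 0 (1604 at an unadjusted p under 0.05), the libraries at 6 and 12 weeks alone 43, array weights 519 and no sBAT libraries at 3 weeks 25, and leaving out 1 library gave 0 to 6. The causes were not tested. With the replicate block the counts were 996 and 1. Same-numbered sBAT libraries at 6 and 12 weeks correlated at -0.12, -0.02 and 0.11 in their deviations, so the numbers were not taken as pairs. Between sBAT and iBAT, same-numbered libraries had values of 0.2, 0.52 and 0.32 at 12 weeks, while those at 6 weeks were -0.16, -0.29 and -0.12. A replicate block within age, added after seeing the data, gave 3 interactions. Of 95 named results 58 kept their direction and side of the threshold under every alternative but the fold minimum, and none reversed. Depth could not be given in reads, which limits what can be said of genes near an FPKM of 1.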

Other observations

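Several imprinted genes, some of which promote growth before and after birth, were among the falls. These genes, and those in the next paragraph, were picked after their values were seen, so their counts describe the choice. PLAGL1, a zinc finger transcription factor, was at 19.9, 14.8 and 29.9 at 6 weeks, against 4.62, 3.56 and 5.45 at 12 weeks (-1.98 ± 0.24, adjusted p = 7.57e-05). PEG3 went from 21.4, 17 and 21.6 to 5.97, 4.73 and 4.27 (-1.81, adjusted p = 7.57e-05) and PEG10 from 21.4, 18.9 and 26.2 to 4.43, 6.78 and 5.39 (-1.83, adjusted p = 0.00017). None of the 3 overlapped between the ages, and in iBAT they were lower by similar amounts (-1.95, -1.98 and -1.76). Of 12 imprinted genes tested 6 fell and none rose, and GRB10 (-0.32, adjusted p = 0.275) and NDN (0.06, adjusted p = 0.874) did not pass. Among the falls were DLK1, counted above with the progenitor genes, and MAGEL2, which passed the filter through 6 weeks alone. MAGEL2 was called in 2 of the 6 fits without a library. SGCE, also among the falls, was called in 1 of these fits and not with FPKM as deposited (limma, adjusted p = 0.097).

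Of 10 secreted factors picked in the same way, 8 fell and 2 rose. PTN, among the falls, passed the filter through 6 weeks alone and had to differ. The rises were APLN, apelin (2.31, adjusted p = 0.0159), called in 3 of the 6 fits without a library, and PDGFB, a growth factor of vessels (1.53, adjusted p = 0.0353), called in none. IGF1, the insulin-like growth factor, went from 92.8, 84.1 and 123 to 35.1, 39.9 and 31 (-1.47 ± 0.25, adjusted p = 0.0012). FGF10, which acts on fat precursors, went from 28.3, 21.9 and 31.8 to 7.26, 7.91 and 13.7 (-1.45, adjusted p = 0.0025), and VEGFA, which drives vessel growth, fell by 1.22 (adjusted p = 0.00143). IL33, an alarmin of stromal cells, fell by 1.68 (adjusted p = 0.000265). SNCG, gamma-synuclein, which fat cells express, rose from 8.64, 56 and 14.3 to 130.1, 135 and 162 (2.81 ± 0.42, adjusted p = 0.000359), with 6 weeks replicate 2 again the highest of its age.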
